A study of Homo sapiens with 4 samples.

Results

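Cells build cholesterol from acetyl-CoA through the mevalonate pathway, and 9 of its enzymes up to lanosterol were read in the RNA-seq of colorectal cancer cells grown as spheroids or attached to the dish. The 9 genes, out of 58735 in the deposited table, were ACAT2, HMGCS1, MVK, MVD, IDI1, FDPS, FDFT1, SQLE and LSS, each with 1 row. They were chosen by their place in the pathway and with earlier results of these libraries known, so the spheroid and adherent values below are a description and were not tested. PMVK, which encodes a step between them, was not among the 9 and is given beside them. FDFT1 is also drawn among the higher genes in the heat map of the study, which was made from these libraries, so its direction is no independent evidence.

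There were 4 libraries from 2 human colorectal cancer cell lines, HCT116 and LOVO, both labelled wild type: each line gave 1 library of adherent cells and 1 of spheroids. Adherent cells carried no treatment and grew in RPMI-1640 with fetal bovine serum. For the spheroids the labels give a treatment of 1 mg/ml without naming the agent, whereas the methods text names oxaliplatin, a platinum drug, at 1 μg/ml; this text also places tumor spheres in ultralow attachment dishes with serum-free DMEM/F12, B27 and N2 supplements, bFGF and EGF. Growth form, medium, serum and drug therefore cannot be told apart in any value below, and with 1 library per condition no value carries a replicate error.

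The pathway builds mevalonate from acetyl-CoA and turns it by phosphorylation and decarboxylation into the isoprenoid unit isopentenyl diphosphate. Isoprenoid units are joined into farnesyl diphosphate, which feeds protein prenylation, dolichol and ubiquinone as well as sterols, and its conversion to squalene and then lanosterol commits it to sterols. Most of these genes are known targets of the transcription factor SREBP2, which is held in the endoplasmic reticulum by SCAP and INSIG proteins while sterols are plentiful, and is cleaved and moves to the nucleus when they are scarce. Serum lipoproteins taken up by the cell are its other source of cholesterol.

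The reads on genes numbered 15483569 to 20429147 per library. The markers of colonic epithelium differed between the lines. In the HCT116 libraries 6 (adherent) and 7 (spheroids) of 10 such markers reached an FPKM of 1, against 3 and 4 in the LOVO libraries, and their summed FPKM was 1754 and 1288 in HCT116 against 326.8 and 187 in LOVO. The defining markers E-cadherin (CDH1) and CDX2 had FPKM of 31.1 and 3.84 in adherent HCT116 cells, but in LOVO CDH1 was at 0.117 (adherent) and 0.00805 (spheroids), and CDX2 had 0 reads in both LOVO libraries. The libraries labelled LOVO therefore lack defining markers of their labelled cell type, and every LOVO value below is that of the libraries so labelled. The keratins KRT8 and KRT18 were present in both, at FPKM of 188.8 and 121.9 in the adherent library and 81.6 and 98.8 in the spheroids. Of the fibroblast markers, DCN had an FPKM of 10.4 (adherent) and 9.97 (spheroids) in LOVO and 0 reads in both HCT116 libraries. COL3A1 and PDGFRB were also higher in LOVO than in HCT116. COL1A1 was instead highest in HCT116 spheroids, at 15.5 against 9.89 (adherent) and 6.10 (spheroids) in LOVO, and COL1A2 had at most 1 read in any library. The 5 markers summed to 5.60, 16.04, 22.6 and 22.4 FPKM in the order HCT116 adherent, HCT116 spheroids, LOVO adherent, LOVO spheroids. The 3 endothelial markers summed to 7.84 FPKM in LOVO spheroids, 6.35 of it PECAM1, and to at most 1.13 elsewhere, and the 4 leukocyte markers to at most 0.648 in any library. The 5 proliferation markers (MKI67, TOP2A, CCNB1, CDK1 and BUB1) summed to 186.0 FPKM (adherent) and 46.2 (spheroids) in HCT116, and to 233.9 and 120.3 in LOVO. Their part in the results below was not tested. In bulk RNA, a different share of cells and a different amount of RNA per cell cannot be told apart.

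Promoter sequence of the enzymes is shown because the 9 genes are read here as a group and their factors bind close to the start site. The RefSeq promoter table (GRCh38.p14, 250 bases before to 50 after each start site) held 9 windows for 6 of the enzymes, HMGCS1, MVK, MVD, IDI1, FDPS and LSS, and none for ACAT2, FDFT1 and SQLE. The windows were searched on both strands for TCACNCCAC as well as the looser TCACNCNA, which resemble sterol regulatory elements and of which the first contains the second, for CCAAT, bound by NF-Y, which works with SREBP proteins, and for GGGCGG, a GC box. CCAAT was found in the windows of all 6 genes, 7 of 9 windows, against 34.6% of all 35116 windows of the table. GGGCGG was found in 9 of 9 windows, against 45.0% of all. TCACNCNA was found in the windows of MVK and FDPS, against 9.06% of all windows, and TCACNCCAC in none of the 9, against 1.13%. The window of PMVK had 0 matches to CCAAT, 0 to both sterol-type motifs and 1 to GGGCGG. A match is no measured site, and windows of 1 gene can overlap. The shares are over every window of the promoter table, not those of the genes compared alone, and no enrichment was tested.

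The longest stretch before the start site that lies outside every exon of GENCODE 29 follows for 5 genes, 5′ to 3′ on the strand of the gene, with CCAAT (or ATTGG, its complement) and TCACNCNA matches in capitals. They lie at chr5:43313513-43313662 (HMGCS1, minus strand), chr16:88663162-88663297 (MVD, minus), chr10:1049171-1049369 (IDI1, minus), chr1:155308616-155308747 (FDPS, plus) and chr21:46228825-46229024 (LSS, minus). For MVK no stretch is shown, since 0 bases before the start site in its window lay outside exons. The stretch of MVD holds 3 CCAAT matches, and that of FDPS holds the sterol-type match TCACACGA, whose first base is at -140 from the start site. Over whole windows, MVK had 5 CCAAT matches in a single window, and MVD and FDPS had 3 each. IDI1 also had 5, but summed over several windows. Its matches at -132 and -129 from the start site lie on opposite strands and share bases.
HMGCS1: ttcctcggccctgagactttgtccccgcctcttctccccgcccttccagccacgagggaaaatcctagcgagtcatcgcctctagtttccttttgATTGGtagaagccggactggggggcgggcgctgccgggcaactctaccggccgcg
MVD: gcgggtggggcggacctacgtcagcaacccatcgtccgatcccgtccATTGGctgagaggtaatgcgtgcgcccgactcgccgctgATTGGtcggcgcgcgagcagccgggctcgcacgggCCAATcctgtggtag
IDI1: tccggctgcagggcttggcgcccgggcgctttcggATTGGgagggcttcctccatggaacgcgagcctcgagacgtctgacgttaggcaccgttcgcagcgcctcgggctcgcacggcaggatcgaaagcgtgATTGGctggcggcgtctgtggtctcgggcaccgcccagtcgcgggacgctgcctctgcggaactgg
FDPS: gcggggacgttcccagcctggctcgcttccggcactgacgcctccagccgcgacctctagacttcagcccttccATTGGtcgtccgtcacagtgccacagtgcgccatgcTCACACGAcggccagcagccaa
LSS: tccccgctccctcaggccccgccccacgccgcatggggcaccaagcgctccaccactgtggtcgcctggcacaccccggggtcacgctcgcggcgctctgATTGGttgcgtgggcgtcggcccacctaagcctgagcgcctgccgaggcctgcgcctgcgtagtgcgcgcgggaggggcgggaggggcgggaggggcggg

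As a group, the 9 enzymes were higher in spheroids than in adherent cells, by a little in HCT116 and by several-fold in LOVO. FPKM are fragments per kilobase of gene, here scaled to a library size that was 0.907 to 1.09 times the reads on genes. The FPKM of the 9 enzymes summed in HCT116 to 134.3 in adherent cells and to 202.3 in spheroids, 1.51 times as much. In LOVO they summed to 143.4 in adherent cells and 678.2 in spheroids, 4.73 times as much. The adherent sums of the lines thus lay close together, with a ratio of LOVO to HCT116 of 1.07, whereas that of the spheroids was 3.35. The median level of the 9 went from 13.3 FPKM (adherent) to 19.4 (spheroids) in HCT116 and from 14.5 to 71.3 in LOVO, while the median of the 14429 genes compared (mean FPKM of at least 1) stayed between 5.48 and 5.86.

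Log2 fold changes are differences in log2(FPKM + 1), with the adherent value taken from that of the spheroids. In HCT116 the 9 enzymes had a median log2 fold change of 0.41, from -0.05 for ACAT2 to 1.09 for FDFT1, against -0.03 over all genes compared. Of the 9, 8 were above 0, where 45.8% of all genes were, and 1 was above 1, where 2.19% of all genes were. In LOVO the median was 2.01, from 1.54 for ACAT2 to 3.49 for MVD, against -0.06 over all genes compared. There 9 of 9 were above 0 and above 1 and 5 were above 2, where 45.5%, 8.57% and 1.81% of all genes were. In both lines together 8 of 9 were above 0, against 27.2% of all genes. These shares of all genes stand beside the counts for scale only, since the contrast was known when the genes were chosen.

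**Figure D1:**
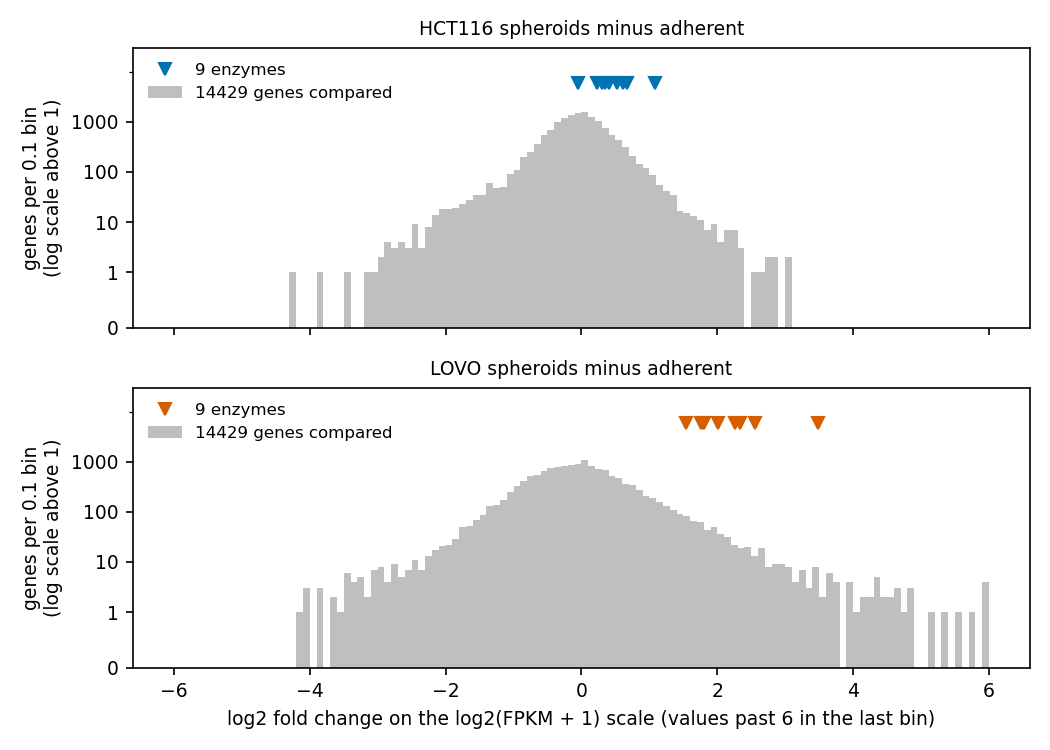
Number of genes per bin of 0.1 in log2 fold change (grey bars, log scale above 1) for HCT116 and LOVO, with the 9 enzymes as triangles at an arbitrary height. The HCT116 triangles sit between -0.05 and 1.09, from the middle of the genes (percentile 47.8, ACAT2) to the upper tail (percentile 98.3, FDFT1), and the LOVO triangles sit between 1.54 and 3.49, in the upper tail.

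Because the deposited values were whole multiples of 1 read, the reads behind each value could be read back, from 328 (MVK, adherent LOVO cells) to 11043 (FDPS, LOVO spheroids). The log2 of the spheroid-to-adherent ratio, without a pseudocount and called the log2 ratio from here on, was then given a 95% exact (Clopper-Pearson) interval, which covers counting error only and compares libraries, not conditions. In HCT116 the interval lay above 0 for 8 enzymes and included 0 for ACAT2. In LOVO it lay above 0 for all 9 and, for each of the 9, above the interval in HCT116. The share of all genes with such intervals was not computed, so these counts have no scale beside them. The LOVO change exceeded the HCT116 change by more than 1 (log2(FPKM + 1) scale) for 9 of 9 enzymes, with a median difference of 1.57, where 9.27% of all genes did and their median was -0.03. This difference between the lines was not tested, as each condition had 1 library.

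**Figure D2:**
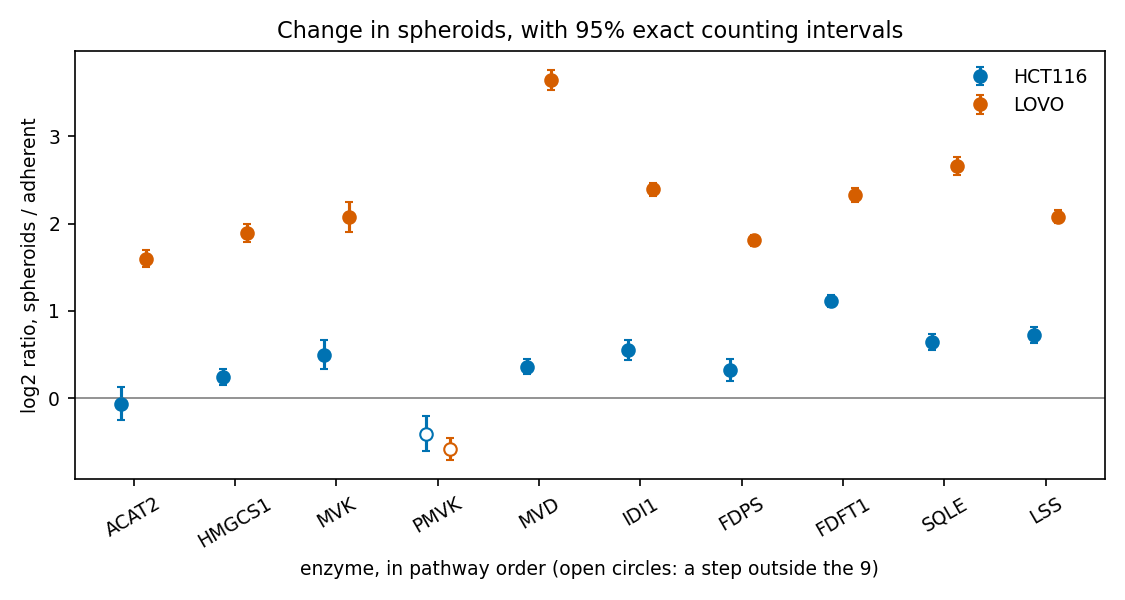
Log2 ratio of spheroids to adherent cells (no pseudocount) along the pathway, with 95% exact counting intervals as bars, in HCT116 (blue) and LOVO (orange); PMVK, outside the 9, is drawn as open circles. The LOVO points of the 9 enzymes run from 1.60 to 3.64 and lie above the HCT116 points, which run from -0.06 to 1.12, and PMVK is below 0 in both lines.

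The first 2 enzymes make HMG-CoA. ACAT2, the cytosolic acetoacetyl-CoA thiolase, spans 159760328 to 159779055 on chromosome 6 (GRCh38, plus strand). In HCT116 its FPKM was 5.92 when adherent and 5.68 as spheroids, and in LOVO the values were 15.0 and 45.4. The HCT116 values did not differ beyond counting error (log2 ratio -0.06, interval -0.25 to 0.13), while its 3.02-fold LOVO change (log2 ratio 1.60, interval 1.502 to 1.69) was the smallest of the 9. Of its 4299 exonic bases, 2247 (52.3%) are shared with exons of 3 genes on the opposite strand, the most for any of the 9. Of these genes, SOD2 (1141 bases) and SOD2-OT1 (1458 bases) had an FPKM of at most 0.16 in any library. TCP1, a subunit of the chaperonin TRiC, shares 397 bases. Its FPKM was 80.7 and 54.8 in HCT116 and 44.4 and 33.0 in LOVO (adherent, spheroids), lower in the spheroids of both lines. Whether the counting used strand is not given in the sources used here, so reads of ACAT2 and its partners may not be separate.

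HMGCS1, the cytosolic HMG-CoA synthase, lies on the minus strand of chromosome 5, from 43289395 to 43313512. In HCT116 its FPKM was 20.8 when adherent and 24.5 as spheroids, against 10.9 and 40.6 in LOVO. The adherent LOVO library was thus the lowest of the 4 and the LOVO spheroids the highest. The log2 ratio was 0.24 in HCT116 (interval 0.15 to 0.33), the smallest above 0, and 1.89 in LOVO (1.79 to 1.997), a 3.71-fold change.

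The next steps phosphorylate mevalonate and remove its carboxyl group. MVK, mevalonate kinase (chromosome 12, plus strand, 109573255 to 109598117), had the lowest level of the 9 in 3 of the 4 libraries. Its FPKM was 4.22 (adherent) and 5.94 (spheroids) in HCT116, and 2.82 and 11.9 in LOVO. The log2 ratio was 0.49 in HCT116 (0.33 to 0.66) and 2.07 in LOVO (1.90 to 2.25), a 4.21-fold change. On the log2(FPKM + 1) scale the LOVO value was 1.75, since that scale understates the change of low genes.

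PMVK, phosphomevalonate kinase, which acts between MVK and MVD, went the other way. Its FPKM was 20.3 (adherent) and 15.3 (spheroids) in HCT116, and 51.8 and 34.6 in LOVO. The spheroid library was the lower of the pair in each line, with log2 fold changes of -0.38 (HCT116) and -0.57 (LOVO). It passed the filter on mean FPKM but was not among the genes chosen, so counts over the 9 do not describe every step of the pathway.

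MVD, the decarboxylase that makes isopentenyl diphosphate, lies on the minus strand of chromosome 16, from 88651935 to 88663161, and shares no exonic base with another gene. Its FPKM was 20.9 (adherent) and 26.9 (spheroids) in HCT116, and 8.11 and 101.2 in LOVO. The adherent LOVO library was the lowest of the 4 and the LOVO spheroids the highest by far. The LOVO change was 12.5-fold, with a log2 ratio of 3.64 (3.53 to 3.76), and its interval did not overlap that of SQLE, next in order. In HCT116 the log2 ratio was 0.36 (0.27 to 0.45), in the lower part of the 9.

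The isoprenoid steps follow. IDI1, the isomerase that makes dimethylallyl diphosphate (chromosome 10, minus strand, 1039152 to 1049170), had an FPKM of 13.3 and 19.4 in HCT116 and of 22.1 and 115.9 in LOVO. The log2 ratio was 0.55 in HCT116 (0.44 to 0.66) and 2.39 in LOVO (2.32 to 2.46), a 5.24-fold change. Its exons share 643 of 4345 bases (14.8%) with the antisense gene IDI2-AS1, whose FPKM was at most 0.807 in any library.

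FDPS, farnesyl diphosphate synthase, the target of the bisphosphonate drugs, lies on the plus strand of chromosome 1, from 155308748 to 155320666. It had an FPKM of 13.2 and 16.6 in HCT116, and of 42.2 and 147.6 in LOVO, the highest of the 9 in both LOVO libraries. The log2 ratio was 0.32 in HCT116 (0.20 to 0.45) and 1.81 in LOVO (1.75 to 1.87). Thus the most abundant of the enzymes in LOVO had the second smallest change there, 3.50-fold. RUSC1-AS1, an antisense gene that shares 693 of the 3718 exonic bases of FDPS (18.6%), had an FPKM of 1.10 and 2.30 in HCT116 and of 2.68 and 16.6 in LOVO, so part of its reads may be those of FDPS or the reverse. The table also lists 8 processed pseudogenes of FDPS, with at most 6 reads in any library.

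The last 3 enzymes serve sterols alone, and in HCT116 they had the 3 largest changes of the 9. FDFT1, squalene synthase, lies on the plus strand of chromosome 8, from 11795573 to 11839309. In HCT116 its FPKM was 24.7 when adherent and 53.5 as spheroids, the highest of the 9 in both. This 2.17-fold change, a log2 ratio of 1.12 (1.05 to 1.19), was the largest in HCT116 and its interval did not overlap that of LSS, next in order. In LOVO its FPKM was 16.5 and 82.9, a 5.03-fold change with a log2 ratio of 2.33 (2.25 to 2.41).

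SQLE, squalene epoxidase, a rate-limiting enzyme of the sterol branch that needs oxygen, is on the same chromosome, plus strand, from 124998497 to 125022283, with no exonic base shared with another gene. Its FPKM was 20.5 and 32.0 in HCT116 and 11.3 and 71.3 in LOVO. The log2 ratio was 0.64 in HCT116 (0.55 to 0.73) and 2.66 in LOVO (2.56 to 2.77), where the 6.33-fold change was the largest after that of MVD. LSS, lanosterol synthase, which closes the sterol rings (chromosome 21, minus strand, 46188141 to 46228824), had an FPKM of 10.8 and 17.8 in HCT116 and of 14.5 and 61.4 in LOVO. Its log2 ratio was 0.73 in HCT116 (0.63 to 0.82) and 2.08 in LOVO (2.01 to 2.15). Exonic bases shared with genes on the opposite strand made up 7.88% of LSS, 4.17% of FDFT1, 4.72% of MVK and 15.0% of HMGCS1, and the same limit on strand holds for them. For MVK the gene that shares bases is MMAB, with an FPKM of 2.29 and 2.08 in HCT116 and of 7.10 and 9.58 in LOVO.

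In the order of log2 ratios in HCT116, the intervals of neighbours overlapped from LSS down through SQLE, IDI1, MVK, MVD and FDPS to HMGCS1, so that only FDFT1 at the top and ACAT2 at the bottom stood apart from their neighbours beyond counting error. In LOVO, MVD, SQLE and ACAT2 stood apart from both neighbours or, at the ends, from the only one, whereas IDI1 overlapped FDFT1, and LSS, MVK, HMGCS1 and FDPS overlapped in turn. Across the 9 genes, the changes of the lines had a Pearson's r of 0.29 with a Spearman's rho of 0.52, and the LOVO change and the adherent LOVO level had r = -0.14 and rho = -0.08. These are descriptions over 9 genes of the same libraries.

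Between the lines, the adherent cells differed gene by gene without a common direction. On the log2(FPKM + 1) scale, 5 of 9 enzymes were lower in adherent LOVO than adherent HCT116 cells, where 46.9% of all genes were. The differences ran from -1.27 for MVD to 1.60 for FDPS. The counting interval of each log2 ratio excluded 0, but the share of all genes for which it did was not computed. In the spheroids 9 of 9 were higher in LOVO, from 0.62 for FDFT1 to 3.08 for FDPS. Their median difference was 1.73, against 0.04 over all genes compared, and the share of all genes above 0 was not computed. By more than 1, 6 of the 9 were higher, where 17.7% of all genes were. Within their own library, the 9 levels stood between percentiles 32.2 and 91.7 of the genes compared in adherent LOVO cells and between 72.3 and 98.8 in LOVO spheroids. In HCT116 they stood between 41.7 and 88.1 in adherent cells and between 51.1 and 96.6 in spheroids.

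Other genes of sterol and isoprenoid metabolism were read by lists chosen for this account. Their counts stand beside the shares of all genes given above, which were 45.8% (HCT116) and 45.5% (LOVO) above 0, and 2.19% and 8.57% above 1. Of 10 enzymes from lanosterol to cholesterol, 7 were higher in HCT116 spheroids and 9 in LOVO spheroids, with 1 and 7 above a log2 fold change of 1 and medians of 0.21 and 1.46. They ran in LOVO from -0.35 for LBR, a lamin-binding sterol reductase of the nuclear membrane, to 4.36 for MSMO1, the sterol C4-methyl oxidase, whose LOVO FPKM was 11.7 (adherent) and 261.3 (spheroids). Of the 11 compared genes of sterol sensing and uptake, 7 were higher in HCT116 spheroids and 6 in LOVO spheroids, with 1 and 4 above 1 and medians of 0.12 and 0.40, so that the LOVO count above 0 was near the share of all genes. INSIG1, the sterol-dependent anchor of SCAP and itself an SREBP target, was highest in LOVO at 3.05 (FPKM 34.3 and 291.9) and had 0.53 in HCT116, while MBTPS2, the protease that makes the second cleavage of SREBP proteins, was lowest at -0.70. SREBF2, which encodes SREBP2, and SREBF1 of the same list were singled out after their values were seen. SREBF2 had log2 fold changes of 0.27 (HCT116) and 0.40 (LOVO), whereas SREBF1 had 0.06 (HCT116) and -0.54 (LOVO).

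The branches that use isoprenoids for other ends did not share this direction. Of 17 compared genes of prenylation, dolichol, ubiquinone and related steps, spheroids had 3 higher and 14 lower in HCT116, and 5 higher and 12 lower in LOVO, with medians of -0.17 and -0.31. For scale, 7699 of all 14429 genes compared were lower in HCT116 spheroids and 7716 in LOVO spheroids. The highest of the 17 in LOVO was PGGT1B, a subunit of a protein prenyltransferase, at 0.29. None of these lists was tested, and all their values share the libraries of the 9 enzymes.

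**Figure D3:**
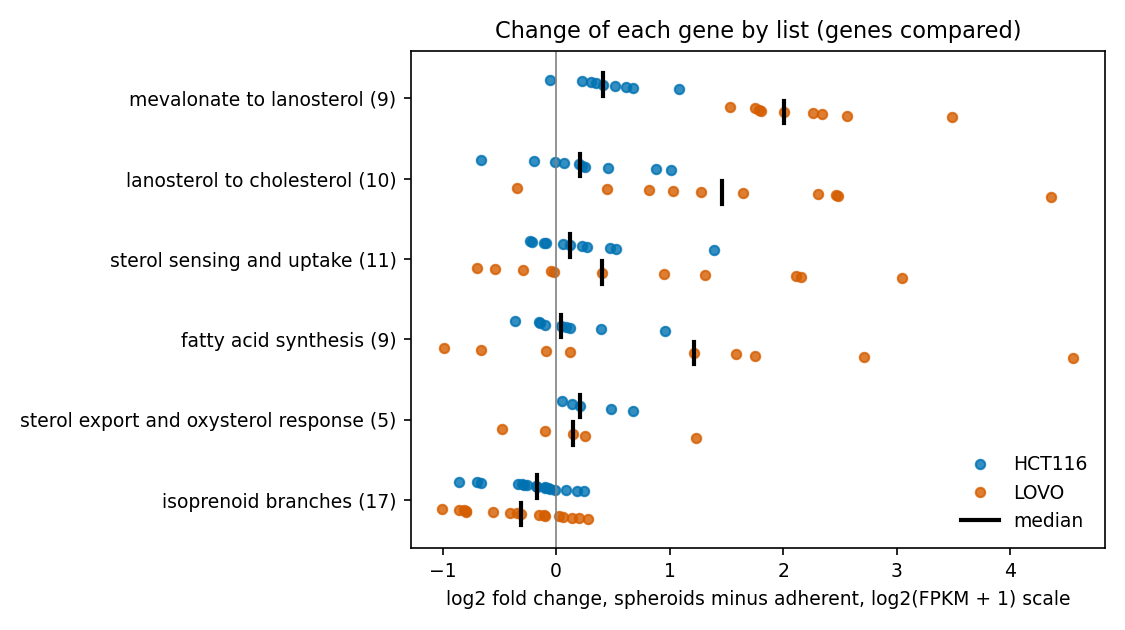
Log2 fold change (spheroids minus adherent, in log2(FPKM + 1)) of each compared gene by list, with the number of genes in brackets, in HCT116 (blue) and LOVO (orange), and the median of each list as a black bar. The LOVO medians are 2.01 for the 9 enzymes, 1.46 for lanosterol to cholesterol and -0.31 for the isoprenoid branches, and the HCT116 medians lie between -0.17 and 0.41.

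By the profile of log2(FPKM + 1) over the 4 libraries, centred on its mean, the 5 genes outside the lists nearest to the mean profile of the 9 enzymes were AL356234.1, AC132872.1, AL158209.1, NFE2, a transcription factor of blood cells, and ANTXR2, an anthrax toxin receptor. Their Euclidean distances were 0.0269 to 0.174. In AL356234.1, AL158209.1 and NFE2 the LOVO spheroids were the only library with an FPKM of 1 or more, so these genes passed the filter on mean FPKM only through the library where the 9 enzymes are highest, and their likeness follows in part from that filter and the pseudocount. Of the others, AC132872.1 had an FPKM of 3.20 (adherent) and 4.28 (spheroids) in HCT116, and of 3.36 and 16.7 in LOVO, and ANTXR2 had 1.11 and 1.91 in HCT116, and 0.893 and 9.07 in LOVO. This likeness rests on 4 values per gene.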

How the data were processed

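RNA-seq was performed on 4 libraries of cell line RNA, 1 per condition. Groups were taken from the sample titles. The authors deposited 1 FPKM value per gene and library, with gene length, coordinates and biotype. The aligner and the counting tool are not given in the sources used here. The submitters' processing notes name the mouse builds GRCm38 and mm10, but all 58735 gene identifiers were human and had the same start and end in GENCODE 29 on GRCh38. FPKM multiplied by gene length gave whole reads (within 0.01 of a read) for 100% of values above 0. The FPKM were relative to 0.907 to 1.09 times the reads on genes, and the floor of 3 reads in a 1 kb gene was an FPKM of 0.147 to 0.179.

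From these values log2(FPKM + 1) was computed, and 14429 genes were compared, those whose FPKM averaged 1 or more, including all 9 enzymes. With 1 library per condition no test was made, and genes were counted past a log2 fold change of 1 or 2. Exact (Clopper-Pearson) 95% intervals of read ratios cover counting error only. The members and lists were chosen with earlier results of these data known. Named were the 9 enzymes, PMVK, the highest and lowest gene of each list by LOVO change, the 5 nearest genes, SREBF2 and SREBF1. Some genes that this rule names are not reported here. Alternatives were pseudocounts of 0.1 and 0.01, TPM, a TMM-style scaling (trims of 30% and 5%), centring on the median, other filters and a threshold of 2. Read recovery, folds and intervals were tested on simulated data. Python 3.11.15, numpy 2.4.6, pandas 2.3.3, scipy 1.17.1 and matplotlib 3.10.9 were used.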

Additional observations from a re-analysis of the deposited data

Results flagged for a closer look

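ACAT2 was the only one of the 9 enzymes with opposite signs in the lines, with log2 fold changes of -0.0523 (HCT116) and 1.535 (LOVO). The difference was not tested, since each condition had 1 library, and in HCT116 the counting interval of its log2 ratio, -0.25 to 0.13, included 0.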

How the results depend on the processing

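Each of the 9 enzymes kept the sign of its change in each line under 2 other pseudocounts, TPM, TMM-style scaling and centring. Over these settings ACAT2 in HCT116 ran from -0.08 to -0.02, FDFT1 in HCT116 from 1.06 to 1.12, and MVD in LOVO from 3.49 to 3.80. The TMM-style factors, 0.905 to 1.10, lay close to the ratios of library size to reads on genes in the deposited FPKM, 0.907 to 1.09. That setting could therefore change little, and scaling to the reads on genes alone was not run. TPM moved the LOVO median of the 9 from 2.01 to 2.26, as it moved the median of all genes by 0.15. At a threshold of 2 the count of the 9 was 0 in HCT116 and 5 in LOVO. The counts over all genes moved more. Above 1 in HCT116 there were 316 genes, but 764 and 937 with pseudocounts of 0.1 and 0.01, 613 with TPM, 520 with no filter, 135 at a mean FPKM of at least 5, 164 among protein-coding genes and 29 at a threshold of 2. Below -1 in HCT116 there were 480, but 760 and 849 with these pseudocounts and 73 at a threshold of 2. In LOVO, 1236 above 1 became 2074 and 2266 with these pseudocounts, 2267 with TPM, 627 at a mean FPKM of at least 5 and 261 at a threshold of 2, and 1133 below -1 became 136 at that threshold. Of the genes past 1 in LOVO, 52.2% were higher, and 70.0% with TPM. In HCT116 the share was 39.7%, and 50.1%, 52.5% and 49.5% with pseudocounts of 0.1 and 0.01 and TPM. No paired analysis was possible because each condition had 1 library. Counting error is small at 328 reads or more per value, and variation between cultures was not measured.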

Other observations

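Fatty acid synthesis, the other arm of SREBP-dependent lipid synthesis, was read by a list of 9 genes. In LOVO spheroids 6 were higher and 5 of them above a log2 fold change of 1, with a median of 1.22, where 45.5% and 8.57% of all genes compared were. In HCT116 spheroids 5 were higher and none above 1, with a median of 0.05, where 45.8% and 2.19% of all genes were, so that the count above 0 was near the share of all genes. ACSS2, which makes acetyl-CoA from acetate, had an FPKM of 9.17 (adherent) and 10.1 (spheroids) in HCT116 and of 6.74 and 181.0 in LOVO, a LOVO log2 fold change of 4.56. ACSL3, an acyl-CoA synthetase of lipid droplets, was the lowest in LOVO at -0.99.

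Of 5 compared genes of sterol export and the oxysterol response, 5 were higher in HCT116 spheroids, with a median of 0.21, and 3 in LOVO spheroids, with a median of 0.15, against 45.8% and 45.5% of all genes compared. NR1H3, the oxysterol receptor LXR alpha, had log2 fold changes of 0.05 (HCT116) and 1.23 (LOVO), and SOAT1, which esterifies cholesterol for storage, had 0.14 and -0.48. None of these values was tested, with 1 library per condition.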
